A study of Mus musculus with 16 samples.

Results

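Maturing erythroblasts import amino acids, sugars, nucleosides and monocarboxylates through membrane transporters of the solute carrier (Slc) families. The 10 genes described here were chosen by name and are 10 of the 46078 genes counted in each library: the nucleoside transporter Slc29a1, the glucose transporters Slc2a1 and Slc2a3, the amino acid transporters Slc7a5, Slc3a2, Slc1a5, Slc43a1, Slc38a5 and Slc7a1, and the monocarboxylate transporter Slc16a1. RNA had been sequenced from polychromatic (Poly-E) and orthochromatic (Ortho-E) erythroblasts, sorted by CD44 and Ter119 from mouse bone marrow at steady state. Ypel4+/+ (wild-type) and Ypel4-/- (homozygous mutant) mice were compared, with 4 libraries in each of the 4 groups and 16 libraries in all. All mice, wild-type ones included, carry a label that joins the background C57BL/6N-A<tm1Brd> with the allele Ypel4<tm1a(EUCOMM)Wtsi> (stock WtsiIeg), a gene trap that interrupts Ypel4 in every cell rather than in 1 tissue. The labels give no age and no treatment, and they do not say whether wild-type mice were littermates.

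Transporters of the Slc families carry solutes down a gradient or coupled to ions or to a second solute. Slc3a2 is the heavy chain (CD98) that brings the light chain Slc7a5 (LAT1) to the plasma membrane, and the pair exchanges glutamine for leucine and other large neutral amino acids. Slc1a5 (ASCT2) imports glutamine, Slc38a5 is a system N carrier of glutamine, histidine and glycine, Slc43a1 (LAT3) is a facilitative carrier of leucine and related amino acids, and Slc7a1 (CAT1) imports arginine and lysine. Slc29a1 (ENT1) equilibrates nucleosides, Slc16a1 (MCT1) carries lactate and pyruvate with a proton, and Slc2a1 (GLUT1) and Slc2a3 (GLUT3) carry glucose. Leucine and glutamine feed heme and globin synthesis and signal through the mTORC1 kinase complex, so these carriers are of interest in cells that fill with hemoglobin.

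The total count per library ranged from 2670173 to 12451234. Ypel4, read as a check of the labels, ran from 489.8 to 716 CPM in wild-type and from 9.90 to 23.6 CPM in Ypel4-null Poly-E, and for Ortho-E from 4432 to 5439.9 and from 174 to 224 CPM. CPM are counts scaled to a common library size after the trimmed-mean scaling of edgeR (TMM), which sets most genes level between libraries. All 10 erythroid markers checked had counts in every group, with summed levels from 53104 to 65786 CPM for Poly-E and from 210282 to 279487 CPM for Ortho-E. Markers of other cells were summed per library: myeloid genes (7 to 9 of 10 with counts in a group) reached at most 5.26 CPM in Poly-E and 20.5 CPM in Ortho-E, B cell genes (5 or 6 of 6) 29.8 and 45.4 CPM, macrophage genes (6 of 6) 4.25 and 11.1 CPM, and T and NK cell genes (1 to 4 of 5) 0.761 and 0.450 CPM. Platelet and megakaryocyte genes (2 to 4 of 5) lay between 26.7 and 35.6 CPM in Poly-E and between 90.0 and 113 CPM in Ortho-E, with Gp1bb at 0 counts in every group, as was Cd3e among the T cell genes. Pf4 had 0 counts in both Ortho-E groups, and Ppbp had 0 in Ypel4-null Ortho-E. The Ortho-E sums of that list thus rest on 3 genes in wild-type and 2 in Ypel4-null cells. On average these TMM-scaled sums were higher in Ortho-E, except that of T and NK cells. They were not computed on plain library totals, where the direction can differ. The part of these cells in the results was not tested.

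The 10 transporters together took a larger share of all counts in Ortho-E, and the libraries of the populations did not overlap. Among Poly-E libraries this share was 0.529% ± 0.00791 (SD, n = 4) for wild-type and 0.522% ± 0.0133 for Ypel4-null mice, and among Ortho-E libraries 0.637% ± 0.0150 and 0.645% ± 0.0253. After TMM scaling their summed level was 3498 ± 126 CPM in wild-type Poly-E and 10006 ± 372 CPM in wild-type Ortho-E, and 3324 ± 156 and 9747 ± 551 CPM in Ypel4-null cells. To compare genes with each other, CPM were divided by the gene length in kilobases (FPKM). In Ypel4+/+ Poly-E, Slc1a5 stood highest at 198 ± 14.6 FPKM (SD, n = 4), above every library of the next gene. Slc16a1 (139 ± 12.7 FPKM), Slc43a1 (136 ± 12.4), Slc7a5 (116 ± 24.2), Slc38a5 (115 ± 4.13) and Slc3a2 (102 ± 9.32) followed, and each of these 5 overlapped its neighbour in the order. Slc29a1 at 37.1 ± 2.77 FPKM and Slc7a1 at 12.3 ± 1.11 FPKM lay apart from their neighbours. The glucose transporters were lowest, with Slc2a3 at 0.436 ± 0.132 FPKM and Slc2a1 at 0.00472 ± 0.00944 FPKM.

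In Ypel4+/+ Ortho-E the same gene led, with Slc1a5 at 761 ± 58.6 FPKM (SD, n = 4). Slc43a1 (454 ± 33.2 FPKM), Slc16a1 (414 ± 23.8), Slc3a2 (336 ± 44.2) and Slc7a5 (313 ± 26.7) overlapped their neighbours in turn. Slc38a5 was at 87.1 ± 9.04 FPKM, below every library of those 5, and Slc29a1 (7.51 ± 0.646) and Slc7a1 (3.06 ± 0.450) were again apart. Of the summed FPKM of the 10 genes, Slc38a5 held 13.5% in Poly-E and 3.66% in Ortho-E, Slc29a1 4.33% and 0.316%, and Slc1a5 23.1% and 32.0%. The order in Ypel4-/- cells differed only between neighbours that overlapped in Ypel4+/+ cells: Slc38a5 stood before Slc7a5 in Poly-E, and Slc7a5 before Slc3a2 in Ortho-E.

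**Figure D1:**
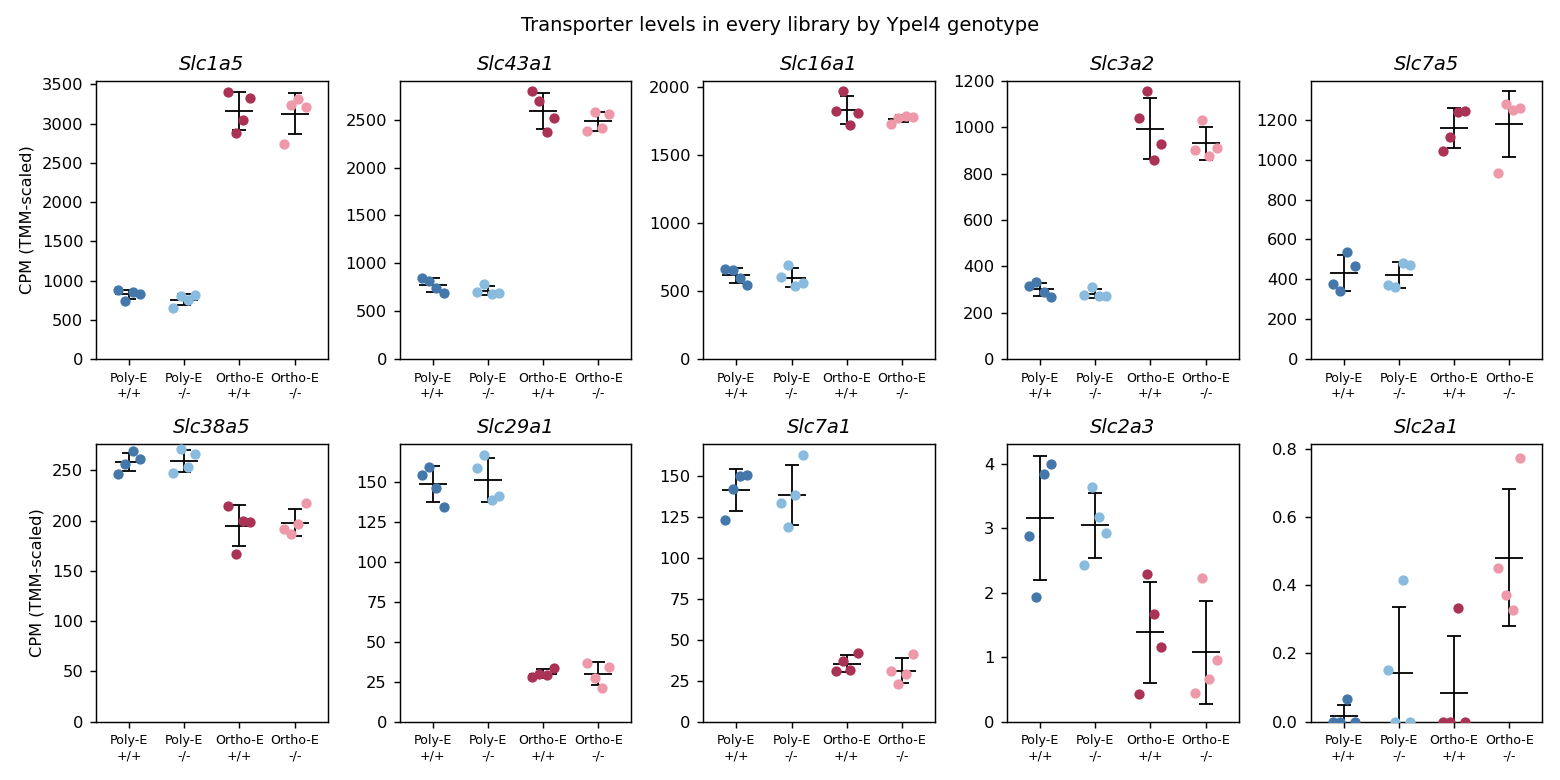
Level of each transporter in CPM (TMM-scaled, linear axes from 0) in the 16 libraries, with 1 point for each library, a line for the mean and bars for the SD of 4 libraries, cut off at 0. The upper row holds the 5 genes that were higher in Ortho-E, and in all 10 panels but that of Slc2a1, which rests on 0 to 4 counts in a library, the +/+ and -/- points of a population lie in the same range.

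The step from Poly-E to Ortho-E was tested on the 8 libraries of each genotype with edgeR's quasi-likelihood test, and a gene was called where its p, adjusted by Benjamini-Hochberg over all genes with at least 10 counts in total, did not exceed 0.05. In Ypel4+/+ cells 9 of the 10 transporters could be tested and all 9 were called. Slc1a5, Slc43a1, Slc3a2, Slc16a1 and Slc7a5 were called higher in Ortho-E, where 26.4% of the 11747 tested genes were called higher, and Slc29a1, Slc7a1, Slc2a3 and Slc38a5 were called lower, as were 32.1% of all tested genes. Their median log2 fold change was 1.47, and that of all tested genes −0.19. In Ypel4-/- cells 10 could be tested: the same 5 were called higher beside 29.5% of 11973 genes, and Slc29a1, Slc7a1 and Slc2a3 lower beside 31.5%. In these bulk libraries a lower share of cells with a transcript and less of it per cell cannot be told apart.

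Scaling set the size of these differences and decided the call of Slc7a5 and of Slc38a5 in both genotypes. TMM factors over all 16 libraries, which scale the printed CPM and FPKM, lay between 1.45 and 1.64 for Poly-E and between 0.606 and 0.726 for Ortho-E. Each fit took TMM factors from its own libraries, so its fold changes can differ from ratios of the printed CPM. Scaling the fits to plain library totals moved the median log2 fold change of all genes from −0.19 to −1.45 for wild-type cells. For Ypel4-null cells it moved from −0.09 to −1.47, so that the shifts were −1.26 and −1.38. Under library totals Slc1a5, Slc43a1, Slc3a2 and Slc16a1 were still called higher in both genotypes, beside 10.4% of genes in Ypel4+/+ and 11.2% in Ypel4-/- cells. Slc29a1, Slc7a1, Slc2a3 and Slc38a5 were called lower in both, beside 60.3% and 60.9% of genes. Slc7a5 kept its sign but not its call, with log2 fold changes of 0.18 (adjusted p = 0.225, edgeR) and 0.23 (adjusted p = 0.0686, edgeR). No transporter changed direction between these scalings in either genotype.

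**Figure D2:**
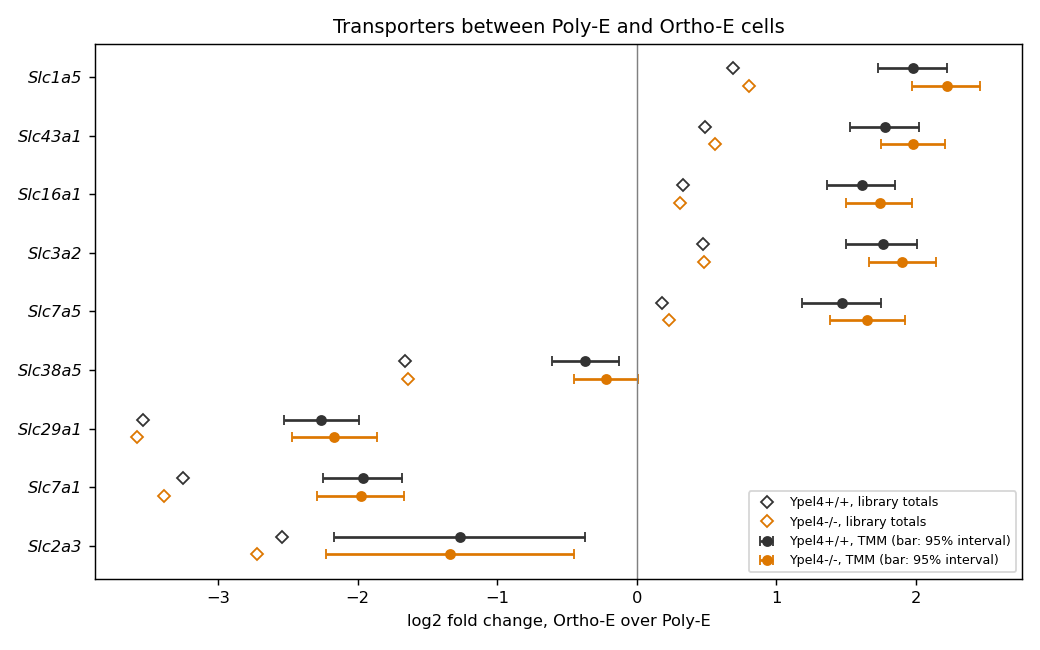
Log2 fold change of Ortho-E over Poly-E (linear axis) for 9 transporters in Ypel4+/+ (black) and Ypel4-/- cells (orange), where filled points with 95% intervals use TMM and open diamonds use library totals. For the upper 5 genes all 4 values lie above 0, from 0.18 to 2.22, and for the lower 4 all lie below 0, from −3.58 to −0.22.

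Slc1a5 (ENSMUSG00000001918, GRCm38 chromosome 7, 16781346 to 16798274, + strand) is the glutamine importer and was the most abundant of the 10. Its levels were 881, 739, 848 and 825 CPM in the 4 Ypel4+/+ Poly-E libraries and 3399.7, 2875, 3048 and 3324 CPM in Ortho-E. In Ypel4-/- cells they were 656, 799.5, 748 and 819.8 CPM in Poly-E and 2736, 3242, 3308 and 3215 CPM in Ortho-E. Every Ortho-E library lay above every Poly-E library in both genotypes. The populations were likewise apart, in either direction, for 53.2% of tested genes in Ypel4+/+ and 55.5% in Ypel4-/- cells. These shares stand behind the same statement for the other transporters, of which separation is thus no special trait. The log2 fold change was 1.98 (standard error 0.12, 95% interval 1.73 to 2.22, adjusted p = 1.22e-13 in edgeR) in Ypel4+/+ and 2.22 (standard error 0.12, 95% interval 1.97 to 2.46, adjusted p = 3.02e-17) in Ypel4-/- cells. This placed Slc1a5 above 88.8% and 89.4% of tested genes.

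Slc38a5, which also carries glutamine, moved the other way. Its differences were smaller than those of Slc1a5 with TMM and larger with library totals. The gene (ENSMUSG00000031170, GRCm38 chromosome X, 8271133 to 8280179, + strand) was at 247, 257, 269 and 261 CPM in Ypel4+/+ Poly-E against 215, 167, 199.5 and 199 CPM in Ortho-E. In Ypel4-/- cells it was at 248, 271, 253 and 266 CPM in Poly-E and at 192, 187, 196 and 217 CPM in Ortho-E. The populations did not overlap in either genotype. The difference on the log2 scale was −0.37 (standard error 0.12, adjusted p = 0.00853 in edgeR) in Ypel4+/+ cells. In Ypel4-/- cells it was −0.22 (standard error 0.11, adjusted p = 0.0942 in edgeR) and was not called. The medians of all tested genes were −0.19 and −0.09, so Slc38a5 lay near the middle of them. With library totals Slc38a5 was at −1.66 and −1.64, beside medians of −1.45 and −1.47, while Slc1a5 was at 0.69 and 0.80. With the replicate number as a block, read as the mouse from the names of the libraries, Slc38a5 was called in Ypel4-/- cells at −0.22 (adjusted p = 0.0276 in edgeR). It was also called there with library totals (−1.64, adjusted p = 1.35e-14 in edgeR), with all 16 libraries fitted together (−0.39, adjusted p = 0.00339 in edgeR) and with DESeq2 (−0.19, adjusted p = 0.0367). The other alternatives gave no call in Ypel4-/- cells, a term for replicates 1 and 2 against 3 and 4 among them. The call in Ypel4+/+ cells was lost with the size factors of DESeq2 (−0.23, adjusted p = 0.0789 in edgeR) and with filterByExpr (−0.19, adjusted p = 0.116), and without Poly-E replicate 2 (−0.27, adjusted p = 0.0652), replicate 3 (−0.23, adjusted p = 0.125) or replicate 4 (−0.24, adjusted p = 0.112). Within a library, where scaling drops out, the FPKM of Slc1a5 was 1.71 times that of Slc38a5 in Ypel4+/+ Poly-E and 8.76 times in Ypel4+/+ Ortho-E. The log2 ratio ranged from 0.634 to 0.945 in those Poly-E libraries and from 3.04 to 3.22 in those Ortho-E libraries, so the populations stood far apart. In Ypel4-/- cells the log2 ratio ranged from 0.515 to 0.732 and from 2.94 to 3.23.

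Both chains of the leucine exchanger were higher in Ortho-E with TMM. The light chain Slc7a5 (ENSMUSG00000040010, GRCm38 chromosome 8, 121881150 to 121907694, − strand) was at 375, 340.2, 539 and 466 CPM in Ypel4+/+ Poly-E against 1041, 1115, 1237 and 1246 CPM in Ypel4+/+ Ortho-E. Ypel4-/- libraries gave 373, 361, 481 and 474 CPM in Poly-E and 933, 1277, 1248 and 1259.6 CPM in Ortho-E. On TMM-scaled CPM the populations were apart in both genotypes, while on plain library totals they overlapped in both. In 3 of the 4 groups both libraries numbered 3 and 4 lay above both numbered 1 and 2, and in the fourth, Ypel4-/- Ortho-E, replicate 1 lay below the rest. The log2 fold change was 1.47 (standard error 0.14, 95% interval 1.18 to 1.75, adjusted p = 4.72e-10 in edgeR) in Ypel4+/+ and 1.65 (standard error 0.13, 95% interval 1.38 to 1.92, adjusted p = 8.87e-13) in Ypel4-/- cells. With library totals it was 0.18 (adjusted p = 0.225 in edgeR) and 0.23 (adjusted p = 0.0686), not called in either genotype.

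The heavy chain Slc3a2 (ENSMUSG00000010095, GRCm38 chromosome 19, 8706882 to 8723369, − strand) was at 314, 332, 290.1 and 269 CPM in Ypel4+/+ Poly-E against 1039, 1155, 857 and 927 CPM in Ypel4+/+ Ortho-E. Ypel4-/- libraries gave 276, 309.8, 270.4 and 271 CPM in Poly-E and 900.2, 1033, 876 and 912 CPM in Ortho-E. Here the libraries numbered 3 and 4 lay below those numbered 1 and 2 in 3 of the 4 groups, the reverse of Slc7a5. Slc3a2 changed by 1.76 (standard error 0.13, 95% interval 1.5 to 2.01, adjusted p = 3.08e-12 in edgeR) in Ypel4+/+ and by 1.90 (standard error 0.12, 95% interval 1.66 to 2.14, adjusted p = 1.29e-15) in Ypel4-/- cells, on the log2 scale. The ratio of the chains stayed near 1 in every group: the log2 ratio of Slc7a5 to Slc3a2 FPKM averaged 0.168 ± 0.415 (SD, n = 4) for wild-type and 0.248 ± 0.298 for Ypel4-null Poly-E, and −0.099 ± 0.294 and 0.007 ± 0.207 for Ortho-E. In each group the 2 libraries with the higher ratio were those numbered 3 and 4.

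Slc43a1, the second leucine carrier (ENSMUSG00000027075, GRCm38 chromosome 2, 84838850 to 84863594, + strand), was more abundant than Slc7a5 in Ortho-E. Its levels were 851, 815, 744 and 692 CPM in Ypel4+/+ Poly-E and 2798, 2694, 2369.7 and 2518 CPM in Ypel4+/+ Ortho-E. In Ypel4-/- cells they were 699, 781, 678 and 693 CPM in Poly-E and 2378, 2584, 2419 and 2557 CPM in Ortho-E. All Ortho-E libraries exceeded all Poly-E libraries of their genotype. The log2 fold change was 1.78 (standard error 0.12, 95% interval 1.53 to 2.02, adjusted p = 1.06e-12 in edgeR) in Ypel4+/+ and 1.98 (standard error 0.11, 95% interval 1.75 to 2.21, adjusted p = 1.21e-16) in Ypel4-/- cells. Per length, Slc43a1 was at 1.18 times Slc7a5 in Ypel4+/+ Poly-E, where the log2 ratio ran from −0.160 to 0.637, and at 1.45 times in Ypel4+/+ Ortho-E, where it ran from 0.313 to 0.802. The ranges of the ratio overlapped between the populations, while Slc43a1 exceeded Slc7a5 in each of the 8 Ortho-E libraries.

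Slc16a1, the carrier of lactate and pyruvate (ENSMUSG00000032902, GRCm38 chromosome 3, 104638668 to 104658462, + strand), was at 664, 656, 599.5 and 543 CPM in Ypel4+/+ Poly-E against 1828, 1973, 1718 and 1812 CPM in Ypel4+/+ Ortho-E. Ypel4-/- libraries held 604, 694, 540.0 and 560.2 CPM in Poly-E and 1728, 1774, 1786 and 1780.0 CPM in Ortho-E. The populations stood apart in both genotypes. Slc16a1 rose by 1.61 (standard error 0.12, 95% interval 1.36 to 1.85, adjusted p = 5.43e-12 in edgeR) in Ypel4+/+ and by 1.74 (standard error 0.11, 95% interval 1.5 to 1.97, adjusted p = 5.39e-15) in Ypel4-/- cells, on the log2 scale. RP23-38L11.1 and RP23-38L11.2 overlap it and had counts, and since the counting ignored strand and dropped reads on several genes, some reads of Slc16a1 can be missing.

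Slc29a1 fell most of the 10. The gene (ENSMUSG00000023942, GRCm38 chromosome 17, 45585200 to 45599606, − strand) was at 154, 159.5, 146 and 134 CPM in Ypel4+/+ Poly-E against 27.9, 29.7, 29 and 33.8 CPM in Ypel4+/+ Ortho-E. Levels in Ypel4-/- cells were 159, 167, 138 and 141 CPM in Poly-E and 36.9, 27.4, 21.0 and 34.5 CPM in Ortho-E. The log2 fold change was −2.26 (standard error 0.13, 95% interval −2.53 to −1.99, adjusted p = 7.08e-14 in edgeR) in Ypel4+/+ and −2.17 (standard error 0.15, 95% interval −2.47 to −1.86, adjusted p = 1.82e-14) in Ypel4-/- cells. Only 4.9% and 5.1% of tested genes had a lower value. Gm17080 overlaps Slc29a1 and had counts, so the same limit on overlapping reads holds. Set against Slc16a1 in the same library, the FPKM of Slc16a1 was 3.75 times that of Slc29a1 in Ypel4+/+ Poly-E and 55.2 times in Ypel4+/+ Ortho-E, and the log2 ratios of the populations, from 1.88 to 1.96 and from 5.60 to 5.91, were far apart.

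The cationic amino acid carrier Slc7a1 (ENSMUSG00000041313, GRCm38 chromosome 5, 148327410 to 148399904, − strand) fell to a similar degree, against the direction of 4 of the other 5 amino acid carriers. Its levels were 123, 142, 150.0 and 151 CPM in Ypel4+/+ Poly-E and 30.8, 37.1, 31.3 and 41.7 CPM in Ypel4+/+ Ortho-E. Those in Ypel4-/- cells were 133, 119, 138 and 163 CPM in Poly-E and 31.0, 23.0, 29.2 and 41.1 CPM in Ortho-E. Poly-E and Ortho-E did not overlap. The log2 fold change was −1.96 (standard error 0.14, 95% interval −2.25 to −1.68, adjusted p = 1.81e-12 in edgeR) in Ypel4+/+ and −1.98 (standard error 0.15, 95% interval −2.29 to −1.67, adjusted p = 2.72e-13) in Ypel4-/- cells. Per length, Slc43a1 was 11.1 times as abundant as Slc7a1 in Ypel4+/+ Poly-E and 149 times in Ypel4+/+ Ortho-E.

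The glucose transporters were scarce. Slc2a1 (ENSMUSG00000028645, GRCm38 chromosome 4, 119108711 to 119137983, + strand), the main glucose carrier of human red cells, had 0, 0, 1 and 0 counts in the Ypel4+/+ Poly-E libraries, 1, 0, 3 and 0 in Ypel4-/- Poly-E, 0, 0, 1 and 0 in Ypel4+/+ Ortho-E and 1, 1, 1 and 4 in Ypel4-/- Ortho-E. These counts were too few to separate the groups. Slc2a1 passed the minimum of 10 counts only in the fit of Ypel4-/- populations and in that of all 16 libraries, and was not called in either (adjusted p = 0.0605 and 1.0 in edgeR). With a term for replicates 1 and 2 against 3 and 4 it was called in the former (adjusted p = 0.0488), on 4 counts in Poly-E and 7 in Ortho-E. Slc2a3 (ENSMUSG00000003153, GRCm38 chromosome 6, 122727809 to 122801640, − strand) had 16, 10, 58 and 46 counts in Ypel4+/+ Poly-E and 1, 4, 5 and 5 in Ypel4+/+ Ortho-E, or 2.87, 1.94, 3.84 and 4.00 against 0.422, 2.29, 1.67 and 1.17 CPM. In Ypel4-/- cells it had 16, 18, 23 and 57 counts at Poly-E and 1, 6, 2 and 5 at Ortho-E. On CPM the populations overlapped in Ypel4+/+ cells and did not in Ypel4-/- cells. The log2 fold change was −1.27 (standard error 0.44, 95% interval −2.17 to −0.37, adjusted p = 0.0143 in edgeR) in Ypel4+/+ and −1.34 (standard error 0.43, 95% interval −2.23 to −0.45, adjusted p = 0.00821) in Ypel4-/- cells. The call in Ypel4+/+ cells was lost without Poly-E replicate 3 (adjusted p = 0.0675) or replicate 4 (adjusted p = 0.0735) and without Ortho-E replicate 1 (adjusted p = 0.0530) or replicate 4 (adjusted p = 0.0583). AC163108.1 overlaps Slc2a3 and had counts.

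RefSeq start sites in the GRCm38.p6 table were found for 7 of the 10 genes, Slc29a1, Slc2a1, Slc3a2, Slc43a1, Slc16a1, Slc38a5 and Slc7a1, and not for Slc2a3, Slc7a5 and Slc1a5. The 250 bases before the first listed start were searched on both strands for the E-box CACGTG, the GC box GGGCGG, the GATA motif GATAA and the amino acid response motif TGATGNAA, none of which overlapped in these genes. CACGTG occurred before Slc43a1, Slc16a1 and Slc38a5, 3 of the 7, and before 6.05% of 27025 genes in the table. GGGCGG occurred in 6 of the 7 and in 32.9% of all, GATAA in 1 (Slc16a1) and in 23.0% of all, and TGATGNAA in 0 and in 3.53% of all. The 4 stretches below include the 3 with the E-box, of which 2 belong to genes that rose and 1 to Slc38a5. The last is that of Slc29a1, the gene that fell most, which held none of the 4 motifs. It precedes the first of 8 starts listed for Slc29a1, and the others were not searched. The stretch of Slc43a1 and, but for its first bases, that of Slc38a5 lie within the span of the counted gene. Capitals mark matches on either strand, and each runs 5′ to 3′ on the strand of its gene up to the base before the start.
Slc43a1 (chr2:84840073-84840322, + strand): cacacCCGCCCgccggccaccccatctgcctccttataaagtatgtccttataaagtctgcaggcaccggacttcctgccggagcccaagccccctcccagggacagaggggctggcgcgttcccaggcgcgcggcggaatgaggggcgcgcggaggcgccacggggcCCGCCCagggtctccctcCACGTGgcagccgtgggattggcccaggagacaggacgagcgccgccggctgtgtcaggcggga
Slc16a1 (chr3:104638414-104638663, + strand): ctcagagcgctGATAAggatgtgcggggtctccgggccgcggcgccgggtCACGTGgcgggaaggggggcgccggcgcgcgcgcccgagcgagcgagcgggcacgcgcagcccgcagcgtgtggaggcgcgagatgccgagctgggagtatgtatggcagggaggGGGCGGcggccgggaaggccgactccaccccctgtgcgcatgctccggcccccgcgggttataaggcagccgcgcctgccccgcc
Slc38a5 (chrX:8271131-8271380, + strand): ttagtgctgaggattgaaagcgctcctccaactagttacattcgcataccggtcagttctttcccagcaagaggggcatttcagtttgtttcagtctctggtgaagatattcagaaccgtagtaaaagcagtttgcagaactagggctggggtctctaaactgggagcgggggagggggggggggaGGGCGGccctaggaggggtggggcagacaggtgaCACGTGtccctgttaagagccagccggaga
Slc29a1 (chr17:45599619-45599868, − strand): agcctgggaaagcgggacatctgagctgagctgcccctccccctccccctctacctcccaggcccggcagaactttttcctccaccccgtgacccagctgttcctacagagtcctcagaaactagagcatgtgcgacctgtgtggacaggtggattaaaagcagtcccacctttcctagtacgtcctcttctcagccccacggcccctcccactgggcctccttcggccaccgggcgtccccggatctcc
The E-box began 64 bases before the start of Slc43a1, 200 before that of Slc16a1 and 30 before that of Slc38a5. It was thus found beside genes that moved in either direction, and the match is a description of these letters.

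The comparison of genotypes asked whether the loss of Ypel4 changed the transporters. No transporter was called in Poly-E, where 1 of 12395 tested genes (0.00807%) was called, or in Ortho-E, where 3 of 10521 (0.0285%) were. None of the 9 tested had an unadjusted p under 0.05 in either population, whereas such a p was reached by 271 of the genes tested for Poly-E and 387 of those for Ortho-E. The 4 libraries of a genotype lay wholly on 1 side of the other 4 for 0 of the 9 in either population, against 2.09% of tested genes for Poly-E and 2.35% for Ortho-E. With same-numbered Poly-E libraries of the genotypes as blocks, 4 genes were called in place of 1, and still no transporter. DESeq2 called no transporter in either population. Summed B cell markers were higher in Ypel4-null Ortho-E, from 36.1 to 45.4 CPM against 19.4 to 28.3 CPM in wild-type, and averaged 23.4 against 16.7 CPM in Poly-E, and their part in these values was not tested.

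The intervals, from fits without a replicate block, bound the differences that these libraries allow. For the 8 transporters other than Slc2a1 and Slc2a3, the fold of Ypel4-/- over Ypel4+/+ lay between 0.919 and 1.02 in Poly-E, and their 95% intervals reached from 0.792 to 1.21. In Ortho-E the folds lay between 0.898 and 1.03, with intervals from 0.715 to 1.28. Slc1a5 and Slc43a1 had the lowest log2 fold changes of the 8 in Poly-E, both −0.12 (95% intervals −0.34 to 0.09 and −0.33 to 0.09), and Slc7a1 had the lowest in Ortho-E, −0.16 (95% interval −0.48 to 0.17). Slc29a1 differed by 0.03 (95% interval −0.19 to 0.25) in Poly-E and 0.01 (95% interval −0.34 to 0.35) in Ortho-E. For Slc2a3 the few counts left a wide interval, with −0.14 (−0.67 to 0.40) in Poly-E and −0.29 (−1.60 to 1.02) in Ortho-E. Slc43a1 lies on the chromosome of Ypel4, 100.2 kb away with 6 genes between them, and in Ortho-E it differed by −0.04 (95% interval −0.23 to 0.15).

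**Figure D3:**
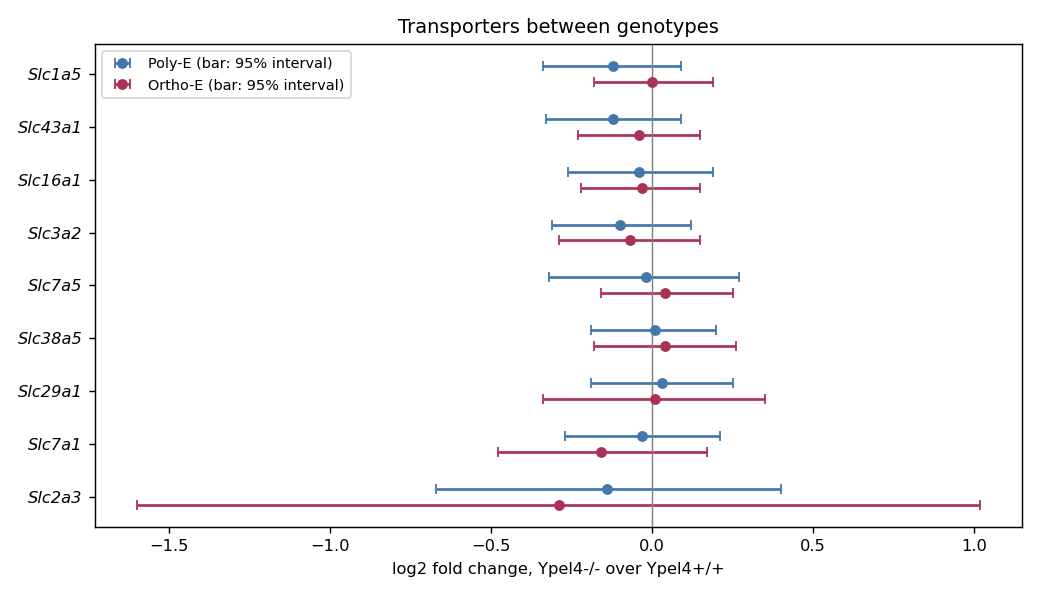
Log2 fold change of Ypel4-/- over Ypel4+/+ (linear axis) for 9 transporters in Poly-E (blue) and Ortho-E (red) cells, with bars for 95% intervals from edgeR. All 18 intervals include 0, and those of Slc2a3, which rests on few counts, are the widest.

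The interaction of genotype and population, fitted on all 16 libraries, asked whether the step to Ortho-E differed between genotypes. No gene was called among 13318 tested (0.0%), although 363 reached p under 0.05 before adjustment and 1 was called by DESeq2, and none of the 10 transporters was called by either tool or had an unadjusted p under 0.05 in edgeR. For the 8 abundant transporters the difference in log2 fold change lay between −0.13 (Slc7a1) and 0.11 (Slc1a5), with 95% intervals within −0.56 to 0.44. With TMM factors from all 16 libraries, it need not equal the difference between the fold changes fitted within each genotype.

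The families of these carriers hold 61 other genes in the counts, and 22 of them could be tested in Ypel4+/+ populations. Of these, 10 were called higher in Ortho-E and 2 lower with TMM, beside 26.4% and 32.1% of all tested genes, but 6 higher and 7 lower with library totals, beside 10.4% and 60.3%. The same shares of all tested genes stand behind the counts of the further lists in Ypel4+/+ cells. The 2 called genes with the highest log2 fold changes, Slc38a6 (2.69, standard error 0.63, adjusted p = 0.000580 in edgeR) and Slc7a8 (2.52, standard error 0.94, adjusted p = 0.0243), had few counts, 12 in Poly-E and 26 in Ortho-E for Slc38a6 and 4 and 8 for Slc7a8. The 2 lowest among called genes were Slc16a4 (−1.30, standard error 0.27, adjusted p = 0.000208) and the glutamine carrier Slc38a2 (−0.47, standard error 0.14, adjusted p = 0.00526). No gene of the families was called between genotypes by edgeR or DESeq2, and none had an unadjusted p under 0.05.

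Some relatives were as abundant as the 10 genes described and are named after their values were seen. Slc2a4 (GLUT4), the insulin-responsive glucose transporter, was at 53.2 ± 2.11 FPKM (SD, n = 4) in Ypel4+/+ Poly-E against 55.3 ± 2.39 FPKM in Ypel4+/+ Ortho-E, far above Slc2a3 and Slc2a1 in the same libraries. Its log2 fold change was 0.09 (adjusted p = 0.522 in edgeR) with TMM and −1.20 (adjusted p = 6.35e-10) with library totals. Slc43a3, a carrier of purine nucleobases, stood at 168 ± 5.90 and 182 ± 19.9 FPKM, with 0.15 (adjusted p = 0.280) under TMM and −1.13 (adjusted p = 9.54e-10) under library totals. The aromatic amino acid carrier Slc16a10 was at 121 ± 6.42 FPKM in Ypel4+/+ Poly-E against 339.8 ± 6.30 FPKM in Ypel4+/+ Ortho-E, and rose under both scalings, by 1.52 (adjusted p = 6.85e-12) and by 0.24 (adjusted p = 0.0421). Slc38a9, a lysosomal sensor of arginine for mTORC1, rose by 2.50 (adjusted p = 1.21e-13) with TMM and by 1.22 (adjusted p = 1.06e-08) with library totals.

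**Figure D4:**
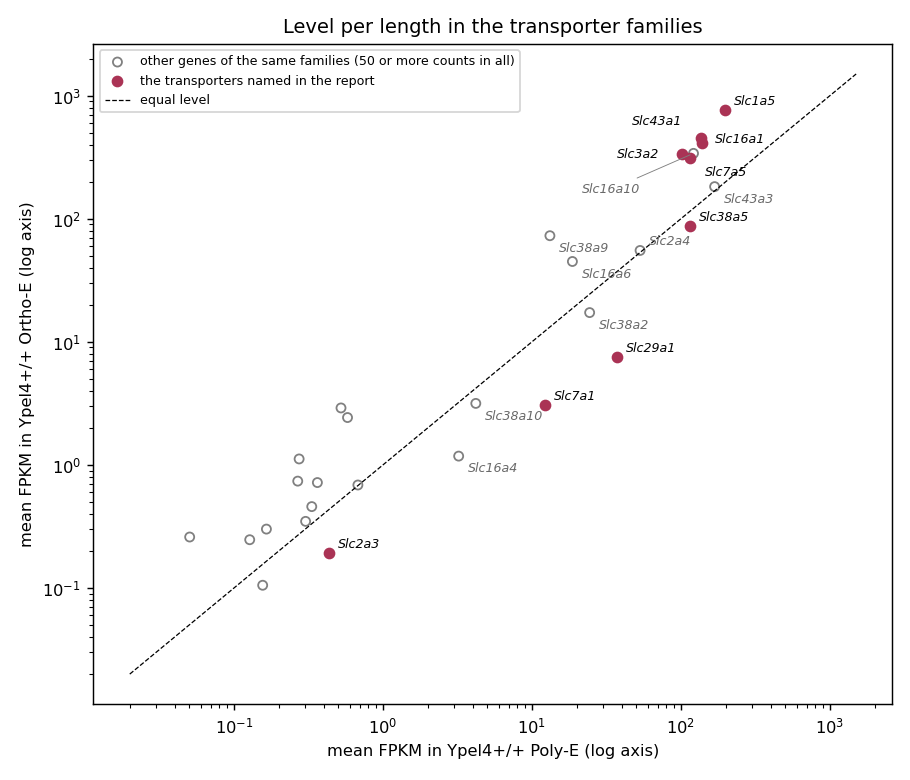
Mean level per length (FPKM, both axes logarithmic) in Ypel4+/+ Poly-E against Ypel4+/+ Ortho-E cells for 9 of the transporters (filled) and for other genes of their families with at least 50 counts in all (open), with a dashed line at equal levels. Slc1a5 lies highest at 198 and 761 FPKM, Slc29a1 and Slc7a1 lie below the line, and Slc2a4 lies on it at 53.2 and 55.3 FPKM, over 100 times the level of Slc2a3.

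Among 7 partners and regulators of the carriers, 5 could be tested and 3 were called higher in Ypel4+/+ Ortho-E with TMM, with none lower, whereas library totals called none higher and 3 lower. In Ypel4-/- cells 3 were called higher and 1 lower with TMM, beside 29.5% and 31.5% of all tested genes. Library totals called none higher and 3 lower there, beside 11.2% and 60.9%. Txnip, which restrains glucose uptake, rose by 1.23 with TMM (standard error 0.13, adjusted p = 8.46e-09 in edgeR) and was at −0.05 (adjusted p = 0.752) with library totals. Stom, a membrane partner of GLUT1, rose by 1.25 (standard error 0.12, adjusted p = 3.42e-10) and was at −0.03 (adjusted p = 0.808) with library totals. Bsg (basigin), the chaperone of Slc16a1 and the third gene called, was at 0.62 (adjusted p = 0.0167) with TMM and at −0.66 (adjusted p = 0.00700) with library totals, so its direction turned with the scaling while that of Slc16a1 did not.

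A list of 30 genes held parts of mTORC1, its regulators, amino acid sensors among them, and its targets. Of these 27 could be tested, and in Ypel4+/+ cells 7 were called higher and 10 lower in Ortho-E, or 4 and 17 with library totals. Of all tested genes 26.4% were called higher and 32.1% lower, or 10.4% and 60.3% with library totals, so these counts lie near the background. The leucine sensor Sesn1 (2.51, standard error 0.13, adjusted p = 5.26e-15 in edgeR) and the Rag GTPase Rragd (2.03, standard error 0.15, adjusted p = 6.88e-12) rose most among called genes, and stayed higher with library totals at 1.23 and 0.75. Seh1l (−2.04, standard error 0.15, adjusted p = 3.89e-12) and Depdc5 (−1.97, standard error 0.22, adjusted p = 1.91e-08), which belong to the GATOR complexes, fell most among them.

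Of 25 genes of nucleoside salvage and nucleotide breakdown, 19 could be tested, with 8 called higher and 6 lower, or 2 and 13 with library totals. The 6 lower, and the 2 higher with library totals, lie near the shares of all tested genes, 32.1% and 10.4%. The pyrimidine nucleotidase Nt5c3 rose by 3.31 (standard error 0.27, adjusted p = 2.15e-06 in edgeR), from 538 ± 206 to 5231 ± 859.6 CPM (SD, n = 4), and the purine nucleoside phosphorylase Pnp2 by 2.31 (standard error 0.13, adjusted p = 5.09e-14). Its near-identical neighbour Pnp can share reads with Pnp2, so that value is uncertain. The uridine-cytidine kinase Uck1 (−1.67, standard error 0.22, adjusted p = 2.12e-07) and the thymidine kinase Tk1 (−1.60, standard error 0.12, adjusted p = 9.31e-12) were lowest among called genes. Of 11 enzymes of imported amino acids and lactate, 7 could be tested and 2 were called, both higher: glutamine synthetase Glul by 2.65 (standard error 0.13, adjusted p = 2.20e-15), from 128 ± 16.2 to 787 ± 61.8 CPM, and Bckdhb, with 5 counts in Poly-E and 14 in Ortho-E. Library totals called 1 higher and 2 lower. No gene of these 4 lists was called between genotypes by edgeR or DESeq2. An unadjusted p under 0.05 in edgeR was found for 1 gene of the mTORC1 list in Poly-E and, in Ortho-E, for 3 genes of that list and 2 of nucleoside salvage.

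The genes whose pattern over the 16 libraries was most like that of a transporter were found by Pearson's r of log2 CPM among the 5279 genes that averaged at least 50 counts. Since all points share the split into Poly-E and Ortho-E, these values describe that split. For Slc29a1 they were Vdac3 (0.996), Nup205 (0.995) and Rrm1 (0.994), for Slc1a5 Fech (0.999), Arhgef12 (0.999) and Slc4a1 (0.999), and for Slc16a1 Slc43a1 (0.997), Tspan8 (0.997) and Isca1 (0.997). Slc2a3, the most abundant of the glucose transporters among the 10, had too few counts for this comparison.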

How the data were processed

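The 16 libraries held RNA of sorted Poly-E or Ortho-E cells. The authors ran nf-core/rnaseq 1.4.2 against GRCm38 and deposited whole-number counts of read pairs per gene, summed over exons by featureCounts 1.6.4 without strand, leaving out reads on several places or genes. The submitters' processing notes also name DESeq2. Groups came from the sample titles, and no 2 libraries were copies. Depth ranged from 2670173 to 12451234 counts, so genes with under 10 counts over a fit were not tested.

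All genes were tested by quasi-likelihood (edgeR 4.0.16 in R 4.3.3, TMM, robust), p-values were adjusted by Benjamini-Hochberg, the threshold was 0.05, and the procedure was checked on simulated data. A standard error is the log2 fold change over the square root of F. FPKM are TMM-scaled CPM per kilobase of deposited length. TMM factors were computed over all 16 libraries for levels, and over the libraries of each fit for tests. Log2 CPM for patterns used a prior count of 2. Alternatives were DESeq2 1.42.0, its size factors, library totals, filterByExpr, no filter, all 16 libraries, a replicate block, globin genes left out, a term for replicates 1 and 2 against 3 and 4, and each library left out.

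The deposited library names give Poly-E and Ortho-E of a replicate a shared number, read as the mouse. Same-numbered libraries correlated in their deviations from group means (7852 genes) at 0.212 to 0.361 in Ypel4+/+ and 0.057 to 0.308 in Ypel4-/- populations. Between genotypes the range was 0.16 to 0.446 in Poly-E, each over the 0.1 set for pairing. Other numbers reached 0.409 there and 1 of 4 numbers matched best with its own, so a pairing between genotypes is uncertain. In Ortho-E the range was −0.048 to 0.169, not paired. The main fits held no block, so their p-values and intervals make no use of any pairing, and the block was run as an alternative. The genotypes are separate mice as far as these names tell. On this reading the Poly-E and Ortho-E groups of a genotype come from the same mice.

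All 10 transporters are named, and of each further list the 2 called genes with the highest and the 2 with the lowest change in Ypel4+/+ cells. The genes and lists were chosen with earlier results of these data known. Promoter sequences are from RefSeq (GRCm38.p6).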

Additional observations from a re-analysis of the deposited data

Results flagged for a closer look

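In 5 of 40 sets of 4 libraries (10 transporters in 4 groups), 1 library stood apart by Dixon's criterion (gap to the nearest library as a share of the whole range), which chance gives in about 1 of 20 sets. Slc7a5 in Ypel4-/- Ortho-E replicate 1 was at 933 CPM, below the other libraries of its group (gap 0.916 of the range), and Slc1a5 in the same library was at 2736 CPM, also the lowest (0.837). Slc3a2 in Ypel4-/- Poly-E replicate 2 was the highest at 309.8 CPM (0.871). For Slc2a1, Ypel4+/+ Poly-E replicate 3 (0.0662 CPM) and Ypel4+/+ Ortho-E replicate 3 (0.333 CPM) each held the only count of their group. A lone count always gives a gap of the whole range, so these Slc2a1 sets cannot be weighed against the rate of 1 in 20. No transporter was called in the interaction of genotype and population.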

How the results depend on the processing

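The signs of the transporters' step from Poly-E to Ortho-E held under every alternative run. Of 153 log2 fold changes of transporters recomputed in Ypel4+/+ populations none changed sign and 10 lost the call (Slc2a3, Slc38a5 and, with library totals, Slc7a5). Slc38a5 also lost it with DESeq2's size factors (−0.23) and filterByExpr (−0.19). Of 167 in Ypel4-/- populations none changed sign, 5 gained the call (Slc38a5 in 4 and Slc2a1 in 1) and 1 lost it (Slc7a5). The counts called in either direction stayed within 1.5 times for genes, and for transporters between 7 (without Ypel4+/+ Poly-E replicate 3 or 4) and 9. The split by direction moved further, as library totals took genes called higher from 3101 to 1217 and lower from 3773 to 7087 in Ypel4+/+, and from 3538 to 1337 and from 3767 to 7289 in Ypel4-/- populations.

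Between genotypes few genes were called under any setting, and no transporter. In Poly-E the main fit called 1 gene, no filter 4, DESeq2 2, all 16 libraries 3, the replicate block 4, the term for replicates 1 and 2 against 3 and 4 3, and fits without 1 library 1 to 2. In Ortho-E it called 3, no filter 5 and the replicate block 13. Ortho-E numbers did not pair, and 2 of 4 matched best with their own. The interaction called 0, DESeq2 1, the mouse as replicate block 1, and fits without 1 library 0 to 1. The block changed no transporter's call other than that of Slc38a5.

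Differences near 0 changed sign, all without a call. In Poly-E, library totals gave 0.03 for Slc7a5, 0.02 for Slc16a1 and 0.02 for Slc7a1. Without 1 library, Slc7a5 ranged from −0.12 to 0.10, Slc16a1 from −0.11 to 0.01, Slc7a1 from −0.11 to 0.04, Slc29a1 from −0.02 to 0.07 and Slc38a5 from −0.01 to 0.02. In Ortho-E, Slc1a5 was 0.00 with DESeq2 and with its size factors and −0.02 with all 16 libraries, Slc16a1 0.00 with library totals, and Slc29a1 −0.01 with all 16 libraries, −0.01 with the replicate block and 0.00 with the term for replicates. Without 1 library, Slc1a5 ranged from −0.04 to 0.06, Slc16a1 from −0.07 to 0.01, Slc29a1 from −0.12 to 0.15, Slc7a5 from −0.02 to 0.12, Slc43a1 from −0.09 to 0.01, Slc3a2 from −0.15 to 0.01 and Slc38a5 from −0.02 to 0.10. In the interaction, Slc16a1 was 0.01 with DESeq2 and with its size factors. Without 1 library, Slc16a1 ranged from −0.04 to 0.10, Slc29a1 from −0.13 to 0.10, Slc2a3 from −0.66 to 0.05, Slc7a5 from −0.02 to 0.22, Slc3a2 from −0.06 to 0.11, Slc7a1 from −0.32 to 0.06, Slc38a5 from −0.05 to 0.13 and Slc2a1, with few counts, from −0.32 to 3.21.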
